A study of Mus musculus with 6 samples.

Results

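Gata1, Klf1, Zfpm1, Gfi1b, Nfe2, Epor and Tfrc, which encode erythroid transcription factors, their cofactor and the receptors for erythropoietin and transferrin, were examined in fetal liver cells with and without PRL2. The genes were listed by symbol, with earlier results of these data known. All 7 were present among the 12579 genes of the deposited count table. The cells were Prl2-/- (3 libraries) or Prl2+/+ (3 libraries), taken from mouse embryos at stage E14.5 and labelled as haematopoietic stem and progenitor cells of the liver. PRL2 is a small phosphatase encoded by Ptp4a2. The labels give no strain, no design of the mutant allele, no sorting scheme and no statement on whether a library came from 1 embryo or from pooled embryos. P-values therefore measure the spread between these libraries, which may be partly technical. RNA was sequenced after template-switching amplification of a very small input.

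Red cells are made in the fetal liver from bipotent progenitors that can also give megakaryocytes. GATA1 binds GATA motifs with its partner FOG1, the product of Zfpm1, and takes over from GATA2 as progenitors commit to the erythroid lineage. KLF1 binds CACCC boxes of globin, membrane and haem genes, GFI1B is a repressor shared by the erythroid and megakaryocytic lineages, and NFE2 is the p45 subunit of a factor needed for platelet formation that also acts on globin genes. The EPO receptor signals through the kinase JAK2 to STAT5 and keeps late erythroid progenitors alive. The transferrin receptor brings in the iron that haem synthesis consumes, and its mRNA is stabilised by iron regulatory proteins when iron is scarce.

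The libraries matched their genotypes and each held counts of all 7 genes. They held 29525301 to 37026282 counts in Prl2-/- and 25965111 to 33613949 in Prl2+/+. Ptp4a2 had 44, 38 and 38 counts in Prl2-/- replicates 1 to 3, against 8088, 9906 and 8135 in Prl2+/+. The progenitor receptor gene Kit was at 219 ± 13.2 CPM (library-scaled counts, with TMM factors) over the 3 Prl2-/- libraries and 215 ± 29.5 CPM over the 3 Prl2+/+ libraries (SD). Libraries differed in markers of other cells within each genotype: the summed level of 15 hepatoblast markers ranged over 67.3 to 2651 CPM in Prl2-/- and over 154 to 4631 CPM in Prl2+/+. Alb, the albumin gene, had 42, 3317 and 398 counts in Prl2-/- and 6264, 1126 and 73 counts in Prl2+/+, and Serpina1a was at 0 counts in Prl2+/+ replicate 3. In such bulk samples fewer cells of a type and less RNA per cell cannot be told apart.

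Per length, Nfe2 and Tfrc were the most abundant of the 7 and Epor the least. Levels divided by exon length, as RPKM over all 6 libraries, averaged 90.1 ± 3.70 for Nfe2, 74.7 ± 8.01 for Tfrc, 49.9 ± 10.1 for Klf1, 48.6 ± 4.79 for Gata1, 39.6 ± 4.55 for Gfi1b, 22.0 ± 2.08 for Zfpm1 and 12.7 ± 2.53 for Epor (SD, n = 6). Klf1 and Gata1 did not differ beyond their spread, since Klf1 was the higher of them in 3 of 6 libraries. The ranges of Nfe2 and Tfrc overlapped, as did those of Gata1 and Gfi1b, although the first of each pair was higher in 6 of 6 libraries. The ranges of Tfrc and Klf1, of Gfi1b and Zfpm1, and of Zfpm1 and Epor did not overlap.

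Gata1, the master regulator of erythroid commitment, lies on chromosome X (7959260 to 7967910, minus strand, GRCm38). Its counts were 3123, 3087 and 3126 in the Prl2-/- libraries (replicates 1 to 3), against 2538, 3360 and 2116 in the Prl2+/+ libraries. Scaled to depth this was 87.4, 104 and 84.5 CPM in Prl2-/- and 96.3, 101 and 81.8 CPM in Prl2+/+. The groups overlapped, with replicate 2 highest and replicate 3 lowest in both genotypes. The log2 fold change of Gata1 was -0.02 ± 0.112 (SE); its 95% confidence interval ran over -0.29 to 0.25, or 0.820-fold to 1.19-fold (edgeR adjusted p = 0.978).

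Klf1, the erythroid Krüppel-like factor that drives globin, membrane and haem genes, lies on chromosome 8 (84901928 to 84905295, plus strand). It stood at 61.5, 92.6 and 64.4 CPM in the Prl2-/- libraries and at 85.3, 93.5 and 62.1 CPM in the Prl2+/+ libraries. The values lay in a high set and a low set, each with libraries of both genotypes: Prl2-/- replicate 2 and Prl2+/+ replicates 1 and 2 were high, and the other 3 libraries were low. The mean of the 3 Prl2-/- libraries was 72.8 ± 17.1 CPM and that of the 3 Prl2+/+ libraries 80.3 ± 16.3 CPM (SD). The log2 fold change was -0.14 ± 0.206 (SE; 95% confidence interval -0.63 to 0.35; edgeR adjusted p = 0.908).

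The RefSeq promoters of Gata1, Klf1, Epor and Zfpm1 are printed because the first 3 of these genes correlated with the erythroid output level of the libraries and Zfpm1 did not pass that test. Each runs over 250 bases before to 50 bases after the start site (GRCm38.p6), on the strand of the gene. Capitals mark GATA motifs (AGATAA or its variant AGATAG, and TGATAA or its variant TGATAG) and CACCC boxes (written out as CCNCNCCC), searched on both strands and allowed to overlap.
Gata1, chrX:7967861-7968160, minus strand: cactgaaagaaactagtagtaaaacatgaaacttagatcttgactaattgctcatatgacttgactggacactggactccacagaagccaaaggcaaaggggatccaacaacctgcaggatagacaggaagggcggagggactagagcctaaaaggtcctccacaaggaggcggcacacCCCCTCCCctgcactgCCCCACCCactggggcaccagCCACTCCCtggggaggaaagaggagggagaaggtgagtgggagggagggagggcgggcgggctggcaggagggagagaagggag
Klf1, chr8:84901732-84902031, plus strand: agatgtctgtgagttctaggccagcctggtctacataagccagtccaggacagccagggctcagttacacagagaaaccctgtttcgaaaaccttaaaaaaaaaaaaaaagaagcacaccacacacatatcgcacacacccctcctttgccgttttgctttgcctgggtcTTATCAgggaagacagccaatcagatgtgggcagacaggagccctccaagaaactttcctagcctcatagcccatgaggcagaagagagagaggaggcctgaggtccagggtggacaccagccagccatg
Epor, chr9:21963527-21963826, minus strand: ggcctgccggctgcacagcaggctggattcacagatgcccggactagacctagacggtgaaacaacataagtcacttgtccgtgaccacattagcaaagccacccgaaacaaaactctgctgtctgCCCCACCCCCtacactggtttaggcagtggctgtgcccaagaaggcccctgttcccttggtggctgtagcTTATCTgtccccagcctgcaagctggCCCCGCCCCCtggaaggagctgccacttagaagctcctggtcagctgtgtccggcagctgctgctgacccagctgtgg
Zfpm1, chr8:122281891-122282190, plus strand: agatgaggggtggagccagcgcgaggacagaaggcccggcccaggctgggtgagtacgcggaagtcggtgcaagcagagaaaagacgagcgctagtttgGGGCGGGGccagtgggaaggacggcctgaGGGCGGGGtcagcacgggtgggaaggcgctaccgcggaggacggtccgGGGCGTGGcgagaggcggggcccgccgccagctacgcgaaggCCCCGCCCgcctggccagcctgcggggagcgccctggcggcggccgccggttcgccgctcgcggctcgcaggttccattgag

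A GATA motif was found in this window in Klf1, 80 bases before the start site, and in Epor, 54 bases before it, each on the opposite strand. None was found in the window of Gata1 or Zfpm1. The window of Gfi1b, which did not pass the test with the output level and is not printed, held a GATA motif 120 bases before its start site, so the motif did not separate the genes by that test. CACCC boxes, counted as matches to CCNCNCCC, numbered 3 in Gata1, 0 in Klf1, 4 in Epor, where they overlap in pairs, and 4 in Zfpm1. This pattern also takes in GC-rich stretches without the letters CACCC, as in Zfpm1. It leaves out stretches that hold CACCC but not the whole pattern, so the 0 for Klf1 does not mean that these letters are absent there. Of 32544 distinct promoter windows of this length, 29.6% held a GATA motif and 49.7% a CACCC box, so neither is rare. The matches are descriptions of these letters and were not tested as binding sites.

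Zfpm1, which encodes the GATA1 cofactor FOG1, is a chromosome 8 gene (122282141 to 122337247, plus strand) and had 83.8, 80.8 and 65.0 CPM in Prl2-/- and 68.9, 75.9 and 73.5 CPM in Prl2+/+ replicates 1 to 3. The Prl2-/- libraries lay on both sides of the Prl2+/+ range, with 2 above it and replicate 3 below it. The log2 fold change was 0.07 ± 0.105 (SE; edgeR adjusted p = 0.908). The annotation places another gene, Gm20388, over Zfpm1 on the same strand, so reads of the pair could not be separated here.

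Gfi1b, the repressor shared with megakaryocytes, lies on chromosome 2 (28609450 to 28621982, minus strand). It had 70.4, 76.9 and 58.0 CPM in Prl2-/- and 78.2, 80.6 and 69.0 CPM in Prl2+/+ replicates 1 to 3. The groups overlapped, and Prl2-/- replicate 3 was the lowest library. Its log2 fold change of -0.15 ± 0.117 (SE; 95% confidence interval -0.43 to 0.13) was the estimate farthest from 0 of the 7 and had the smallest p of them (edgeR unadjusted p = 0.240, adjusted p = 0.899).

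Nfe2, on chromosome 15 (103248212 to 103258403, minus strand), was the steadiest member. It had 9245, 7598 and 9546 counts in Prl2-/- and 6090, 8485 and 6522 counts in Prl2+/+, which scaled to 258.6, 255.2 and 258.2 CPM in Prl2-/- and 231.1, 254.8 and 252.1 CPM in Prl2+/+. All 3 Prl2-/- libraries lay above all 3 Prl2+/+ libraries, by a margin of less than 1 CPM between Prl2-/- replicate 2 and Prl2+/+ replicate 2. Nfe2 was the single member of the 7 whose groups did not overlap, while 11.1% of all genes tested had groups that did not overlap in either direction. The log2 fold change was 0.06 ± 0.055 (SE), and its 95% confidence interval ran over 0.954-fold to 1.15-fold (edgeR adjusted p = 0.899). The exact permutation test of Nfe2 gave p = 0.1, the smallest that 3 against 3 libraries allow. Any gene whose groups do not overlap reaches this p, so it adds nothing to the lack of overlap.

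Epor, the erythropoietin receptor gene, lies on chromosome 9 (21958899 to 21963576, minus strand) and had the fewest counts. They were 682, 885 and 778 in Prl2-/- and 683, 868 and 466 in Prl2+/+, so counting alone leaves an error of 4.63% in the shallowest value. In CPM they were 19.08, 29.72 and 21.04 in Prl2-/- and 25.92, 26.07 and 18.02 in Prl2+/+. The highest library was Prl2-/- replicate 2 and the lowest Prl2+/+ replicate 3, and the mean was 23.3 ± 5.67 CPM over the 3 Prl2-/- libraries and 23.3 ± 4.61 CPM over the 3 Prl2+/+ libraries (SD). The log2 fold change was -0.0047 ± 0.213 (SE), and the 95% confidence interval of 0.700-fold to 1.42-fold was the widest of the 7 (edgeR adjusted p = 0.998).

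Tfrc, the transferrin receptor gene, lies on chromosome 16 (32608896 to 32632794, plus strand). It stood at 338, 417 and 313 CPM in Prl2-/- and at 404, 371 and 357 CPM in Prl2+/+ replicates 1 to 3. The Prl2-/- libraries again spanned the whole Prl2+/+ range. The log2 fold change was -0.08 ± 0.113 (SE; 95% confidence interval -0.35 to 0.19; edgeR adjusted p = 0.908). Its 3′ untranslated region of 2458 bases in GENCODE M21 held 4 stretches of the form of an iron-responsive element, the hairpin that iron regulatory proteins bind: C, 5 bases, CAGTGN and 5 bases, of which at least 4 pair with the first 5. They are printed because they link Tfrc to the iron regulatory protein genes Aco1 and Ireb2 described with iron handling, and capitals mark the loop.
Tfrc, chr16:32631219-32631247, plus strand: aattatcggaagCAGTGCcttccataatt
Tfrc, chr16:32631598-32631626, plus strand: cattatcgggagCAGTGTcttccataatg
Tfrc, chr16:32631663-32631691, plus strand: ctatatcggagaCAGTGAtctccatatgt
Tfrc, chr16:32631710-32631738, plus strand: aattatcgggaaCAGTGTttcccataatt

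In each of the 4 stretches all 5 stem positions could pair, and the loop letters differed only in the last base, which was C, T, A and T in the order printed.

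**Figure D1:**
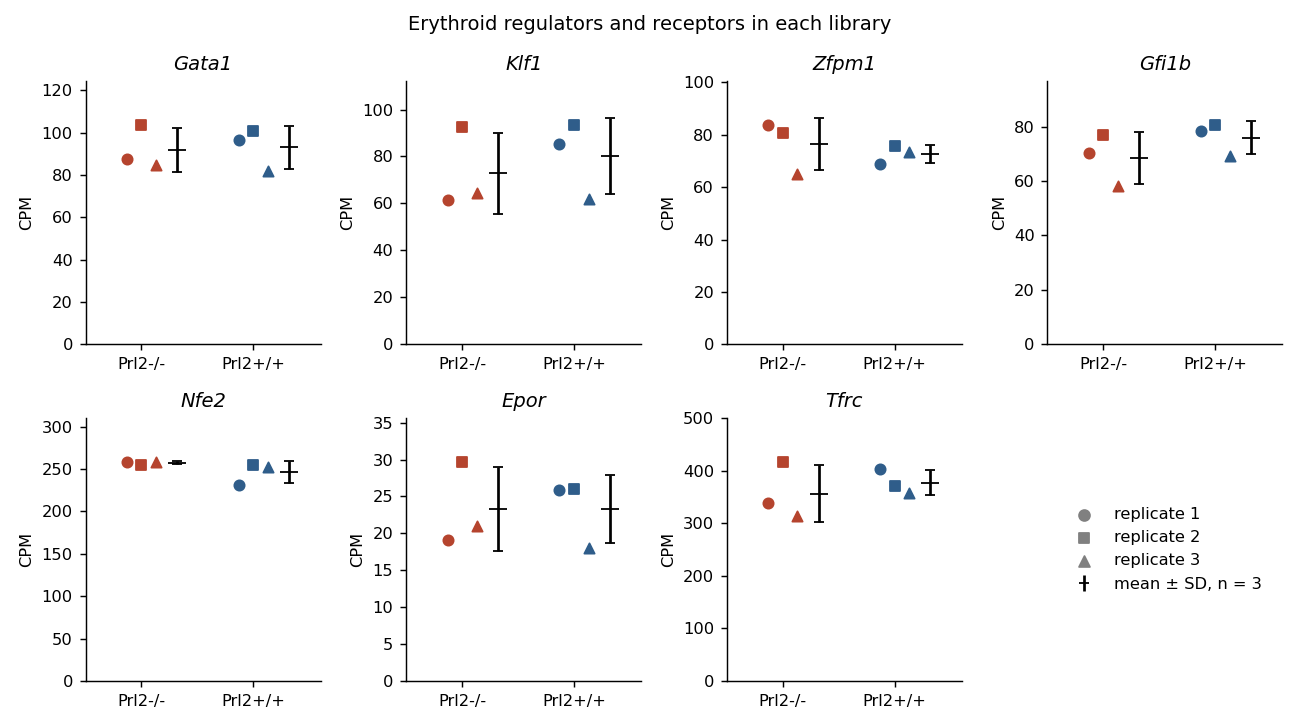
CPM (vertical axes, from 0) of the 7 genes in the 3 Prl2-/- and 3 Prl2+/+ libraries, with marker shape for the replicate number and the black bar for mean ± SD. Nfe2 lies in a narrow band near 250 CPM, and the ranges of the other 6 genes overlap between genotypes.

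No difference between Prl2-/- and Prl2+/+ cells passed the test in any of the 7 genes. With edgeR's quasi-likelihood test, 0 of 7 passed an adjusted p of 0.05, where 5 of 12576 genes tested, or 0.0398%, passed. No member had an unadjusted p under 0.05 either, against 4.60% of all genes tested, and DESeq2, the edgeR likelihood ratio test and limma-voom called 0 of the 7. Estimates were above 0 for 2 members and below 0 for 5. The median log2 fold change of the 7 was -0.02, against -0.00067 over all genes tested. The intervals set the size of difference that these libraries could hide: a fall of Klf1 to 0.645-fold or of Gfi1b to 0.742-fold lay within them, while for Nfe2 nothing beyond 0.954-fold to 1.15-fold did.

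**Figure D2:**
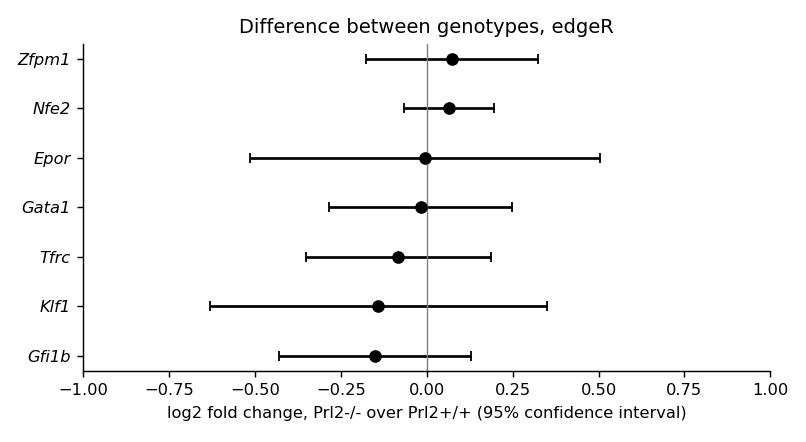
Log2 fold change of Prl2-/- over Prl2+/+ for each of the 7 genes (points) with 95% confidence intervals (bars), from edgeR. All 7 intervals span 0, and those of Klf1 and Epor are the widest.

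The regulators were far steadier between libraries than the genes of red cell output. Among 29 measured erythroid output genes, among them haem enzymes, membrane proteins and an embryonic globin, the highest library exceeded the lowest by a median of 3.03-fold. Among the 7 members this ratio ran only from 1.12-fold for Nfe2 to 1.65-fold for Epor. Alas2, the erythroid enzyme that starts haem synthesis, had 8.28, 269 and 48.1 CPM in Prl2-/- and 36.7, 145 and 8.47 CPM in Prl2+/+. Slc4a1, the band 3 anion exchanger of the red cell membrane, had 26.5, 327 and 85.8 CPM in Prl2-/- and 74.9, 230 and 19.8 CPM in Prl2+/+. Both were highest in replicate 2 of each genotype, and their groups overlapped.

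The standard deviation of log2 CPM over the 6 libraries was 0.156 at the median of the 7 members, 0.584 at the median of the output genes and 0.150 at the median of all genes tested. It was 0.061 for Nfe2, lower than for all but 7.18% of genes, and 0.293 and 0.286 for Klf1 and Epor, the most variable members. Of the 29 output genes, 23 varied more than every member. Xk and E2f2 were the least variable of them, with a highest to lowest ratio of 1.18-fold and 1.21-fold. Hba-a1, Hba-a2, Hbb-bs, Hbb-bt and Ahsp were not analysed here.

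**Figure D3:**
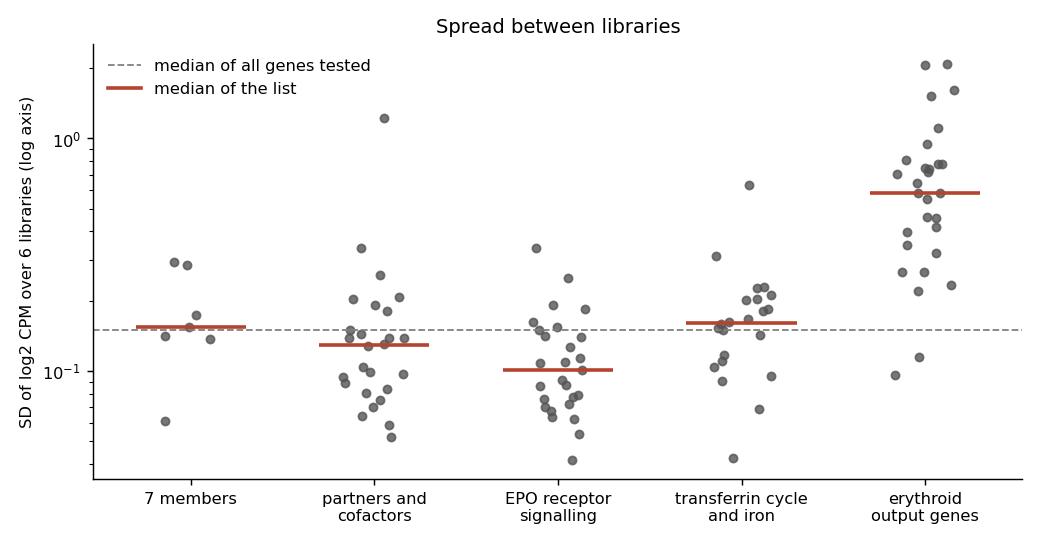
Standard deviation of log2 CPM over the 6 libraries (vertical log axis) for each gene of 5 lists, with red lines for list medians and a dashed line for the median of all genes tested. The members lie around the dashed line and most erythroid output genes lie above it, with a median of 0.584.

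Klf1, Epor and Gata1 were higher in libraries with more erythroid output, while r was near 0 for Nfe2. The mean log2 CPM of the 29 output genes was 4.26, 5.86 and 4.69 in the Prl2-/- libraries, against 4.87, 5.50 and 4.15 in the Prl2+/+ libraries. Over the 6 libraries, Epor followed it with Pearson's r = 0.947 (exact permutation p = 0.00278, adjusted over the 7 members 0.0194) and Spearman's rho = 1.00 (exact permutation p = 0.00278, the smallest that 6 libraries allow for rho; adjusted 0.0194). For Klf1, r was 0.914 (exact permutation p = 0.00556, adjusted 0.0194) and rho 0.886 (exact permutation p = 0.0333, adjusted 0.0778). For Gata1, r was 0.921 (exact permutation p = 0.0111, adjusted 0.0259) and rho 0.943 (exact permutation p = 0.0167, adjusted 0.0583). Thus 3 members passed by r and 1 by rho.

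The fitted slopes were 0.40 log2 units per unit of log2 output for Epor and Klf1 and 0.19 for Gata1, and their difference was not tested. Tfrc (r = 0.639, rho = 0.714) and Gfi1b (r = 0.537, rho = 0.657) did not pass, with exact permutation p-values adjusted over the 7 members of 0.306 and 0.366 for r and 0.238 and 0.245 for rho. Zfpm1 (r = 0.167, rho = 0.143) and Nfe2 (r = -0.0063, rho = -0.086) had adjusted exact permutation p of 0.847 and 0.986 for r and 0.919 for rho. Of the 7 members, 3 had an r of at least 0.8, as did 4.18% of the 12547 genes tested that are not output genes, the members among them.

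These relations were limited by the number of libraries. When replicate 2 of both genotypes was left out, the libraries farthest from the median output, r over the remaining 4 was 0.939 for Epor, 0.809 for Klf1 and 0.724 for Gata1. Taken as deviations from the genotype means, r was 0.951, 0.973 and 0.931 for these genes in the order named, and permuting the libraries within each genotype left 0 of the 7 members past the threshold (exact permutation p = 0.0278 for Epor and Klf1, the smallest this allows, and 0.0556 for Gata1; adjusted over the 7 members 0.0972, 0.0972 and 0.130). Without any 1 of the 6 libraries, r stayed at 0.909 to 0.997 for Epor, 0.890 to 0.963 for Klf1 and 0.880 to 0.960 for Gata1, but 0 members passed over 5 libraries (adjusted exact permutation p 0.0583 to 0.194 for these 3 genes). In both settings 1 member alone at the smallest possible p could not pass after adjustment. Within genotypes even these 3 genes together at that p could not pass, so that count of 0 does not decide whether the relations hold. Over 5 libraries several genes at the smallest p could have passed. There the unadjusted exact permutation p was 0.00833 to 0.025 for Epor, 0.0167 to 0.0833 for Klf1 and 0.025 to 0.0667 for Gata1. The relations thus did not pass once a library was left out.

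Some markers of other cells split by the same libraries. The 15 hepatoblast markers had a mean log2 CPM of -0.61, 5.45 and 1.96 across the Prl2-/- libraries and of 6.59, 3.84 and 0.83 across the Prl2+/+ libraries, so the 3 libraries high in Klf1 and Epor were the 3 richest in hepatoblast markers. For 11 B cell markers it was 4.34, 1.66 and 3.17 across the Prl2-/- libraries and 2.43, 2.50 and 3.92 across the Prl2+/+ libraries, lowest in the same 3 libraries. Summed over the list, B cell markers ranged over 72.7 to 422 CPM in Prl2-/- and 110 to 336 CPM in Prl2+/+, with none at 0. The mean of 11 granulocyte and monocyte markers was also lowest in these 3 libraries, within a narrow span of 9.12 to 9.59 over all 6. Macrophage, megakaryocyte and mast cell markers did not split this way, with macrophage means of 3.99, 3.35 and 3.18 across the Prl2-/- libraries and 4.18, 3.31 and 3.09 across the Prl2+/+ libraries. With the output level itself, 0 of 15 hepatoblast, 0 of 11 B cell and 0 of 11 granulocyte and monocyte markers had an r of at least 0.8. Only positive r was counted, so markers that fell as the output level rose could not enter. The 0 therefore does not show that B cell or granulocyte and monocyte markers were unrelated to the output level. The part of these cells in the relation was not tested.

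**Figure D4:**
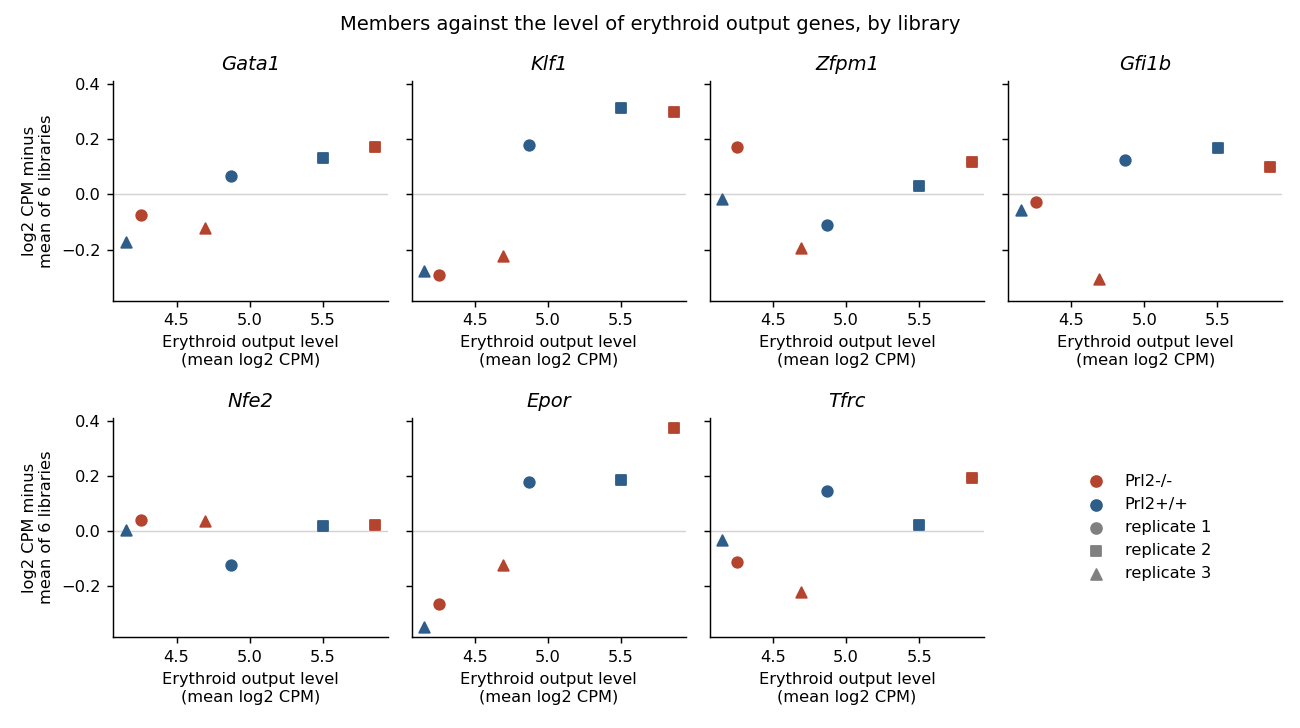
Log2 CPM of each of the 7 genes minus its mean over the 6 libraries (vertical axes) against the mean log2 CPM of the erythroid output genes (horizontal axes), with colour for genotype and marker shape for the replicate number. Epor, Klf1 and Gata1 climb with the output level across both genotypes, and Nfe2 stays level.

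Among the members themselves, Klf1 and Epor had the most alike profiles. Likeness was measured as the root mean square difference between the centred log2 CPM of 2 genes over the 6 libraries, where a smaller value means more alike. It was 0.079 for Klf1 and Epor, 0.086 for Gfi1b and Tfrc, 0.090 for Gata1 and Tfrc, and largest, at 0.292, for Klf1 and Nfe2. Among the 7795 other genes that averaged a log2 CPM of 4 or more, the nearest to Gata1 was Aco1, which encodes iron regulatory protein 1, at 0.011 against a median of 0.172 over these genes. Aco1 had 66.9, 80.9 and 65.7 CPM in Prl2-/- and 75.0, 78.3 and 62.7 CPM in Prl2+/+. Gtpbp2, which encodes a GTP-binding protein, was the nearest gene to both Epor (0.034) and Klf1 (0.053). The nearest to Gfi1b was Herc1 (0.028), to Tfrc Aida (0.035), to Nfe2 Casc3 (0.015) and to Zfpm1 1700017B05Rik (0.042). With so many genes compared over so few libraries, close neighbours occur for any gene, so these values describe the profiles only.

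No partner of the erythroid factors passed the test between the genotypes. The 26 measured partners and cofactors include Tal1, Lmo2 and Ldb1 of the complex that GATA1 joins. Of these 26, 0 passed in edgeR and 0 were called by DESeq2, the likelihood ratio test or limma-voom. An unadjusted p under 0.05 was found for 0 of the 26. Over all genes tested, 0.0398% passed in edgeR and 4.60% had such a p. Estimates were above 0 for 18 and below 0 for 8, and their median was 0.05 log2 units. The smallest p belonged to Ep300, the acetyltransferase that serves as a coactivator, with a mean of 48.6 ± 4.49 CPM over the 3 Prl2-/- libraries and 55.3 ± 2.22 CPM over the 3 Prl2+/+ libraries (SD), or -0.19 ± 0.082 log2 units (SE; adjusted p = 0.899 in edgeR). Next was Bach1, a repressor that haem inactivates, at -0.27 ± 0.136 (SE; edgeR adjusted p = 0.899). In 4 of the 26 the groups did not overlap, where 11.1% of all genes tested had such groups. An r of at least 0.8 with the erythroid output level was found for 2 of the 26, Tal1 and Sox6, a repressor of embryonic globins, against 4.18% of genes, and Sox6 had 1.43, 6.28 and 2.70 CPM in Prl2-/- against 1.33, 4.14 and 0.541 CPM in Prl2+/+.

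The balance of Gata1 with the factors that precede or oppose it differed between the genotypes by less than the spread of the libraries. The log2 ratio of Gata1 to Gata2 was -1.29, -1.38 and -1.59 in the Prl2-/- libraries and -1.32, -1.46 and -1.53 in Prl2+/+, on the scale of log2 CPM, so Gata2 had more counts than Gata1 in every library. The difference was 0.014, with means of -1.42 ± 0.152 in Prl2-/- and -1.43 ± 0.107 in Prl2+/+ (SD, n = 3 each; exact two-sided permutation p = 0.9). Gata2 itself had 214, 269 and 254 CPM in Prl2-/- and 240.0, 277 and 236 CPM in Prl2+/+, and was the 1 of 7 opposing or earlier factors with an r of at least 0.8 with the erythroid output level. The log2 ratio of Gata1 to Spi1, the gene of the myeloid and lymphoid factor PU.1, averaged -1.86 ± 0.225 in Prl2-/- and -1.91 ± 0.162 in Prl2+/+ (SD, n = 3 each; exact two-sided permutation p = 0.8). Of 7 opposing or earlier factors, 0 passed in edgeR or in the other tools and 0 had an unadjusted p under 0.05. Over all genes tested, 0.0398% passed in edgeR and 4.60% had such a p, so 0 of 7 is near those shares. Groups did not overlap in 1 of the 7, Cebpa, where 11.1% of all genes tested had such groups. Cebpa, the granulocyte and monocyte factor, had the smallest p, at 0.27 ± 0.117 log2 units (SE; adjusted p = 0.899 in edgeR), and the lymphoid factor gene Ikzf1 was next at -0.07 ± 0.062 (SE; edgeR adjusted p = 0.899).

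No gene listed with EPO receptor signalling passed the test either, in a list that also holds genes that damp the signal and targets of it. Of 27 measured, 0 passed in edgeR, 0 had an unadjusted p under 0.05 and 0 were called by DESeq2, the likelihood ratio test or limma-voom. Over all genes tested, 0.0398% passed in edgeR and 4.60% had such an unadjusted p. Among the 27, 14 estimates were above 0 and 13 below, with a median of 0.0021. Stat5a, which encodes a transcription factor that the receptor activates, had 69.0, 62.5 and 68.7 CPM in Prl2-/- and 57.0, 60.1 and 62.1 CPM in Prl2+/+, with no overlap between the groups. Its log2 fold change was 0.16 ± 0.067 (SE; edgeR unadjusted p = 0.051, adjusted p = 0.899), and that of Crkl, an adaptor, was 0.13 ± 0.065 (edgeR adjusted p = 0.899). Jak2, the kinase bound to the receptor, had 87.9, 112 and 115 CPM in Prl2-/- and 127, 118 and 120 CPM in Prl2+/+. Its groups did not overlap, and its log2 fold change was -0.21 ± 0.109 (SE; edgeR adjusted p = 0.899). In all, 4 of the 27 had groups that did not overlap, beside 11.1% of all genes tested, so such groups are not unusual. An r of at least 0.8 with the erythroid output level was found for 2 of the 27, Cish and Bcl2l1, against 4.18% of genes. Bcl2l1, which encodes the survival protein BCL-XL, had 109, 128 and 98.0 CPM in Prl2-/- and 112, 116 and 96.0 CPM in Prl2+/+. Cish, a STAT5 target that damps the signal, averaged 82.2 ± 3.50 CPM over the 3 Prl2-/- libraries and 81.4 ± 4.27 CPM over the 3 Prl2+/+ libraries (SD).

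Genes of the transferrin cycle and iron handling gave no call. Of 22 measured, 0 passed in edgeR or in the other tools and 2 had an unadjusted p under 0.05, where 4.60% of all genes tested did; 12 estimates were above 0 and 10 below, and their median was 0.03 log2 units. Among these was Ireb2, which encodes iron regulatory protein 2, at -0.26 ± 0.102 log2 units (SE; unadjusted p = 0.041 and adjusted p = 0.899 in edgeR). Ireb2 had 32.9, 37.3 and 35.3 CPM in Prl2-/- and 44.9, 36.4 and 44.7 CPM in Prl2+/+, so its groups overlapped at Prl2-/- replicate 2 and Prl2+/+ replicate 2. The ferritin genes Fth1 and Ftl1 were at -0.01 ± 0.134 and -0.05 ± 0.120 (SE; edgeR adjusted p of 0.985 and 0.939). In 6 of the 22, namely Slc25a37, Abcb10, Aco1, Hfe, Ncoa4 and Ftl1, r with the erythroid output level was at least 0.8, against 4.18% of genes; no test was made of this share. Slc25a37, the mitochondrial iron importer of erythroid cells, had 10.4, 32.7 and 14.4 CPM in Prl2-/- and 15.9, 22.9 and 11.1 CPM in Prl2+/+.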

How the data were processed

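The deposited file gives, for 6 libraries, the authors' raw counts of reads for every gene it lists, with each gene's exon positions and length. Reads were aligned with STAR and counted with featureCounts, per the submitters' processing notes; versions, the build and the strand setting of the counting were not given in the sources used, and the kit does not mark strand. Of 12135 symbols shared with GENCODE M21 (GRCm38), 12126 overlapped the annotated position, so positions are given on that build. Genes absent from the table were not analysed here.

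Counts were filtered with filterByExpr (minimum count 10), which left 12576 of 12579 genes, and were scaled with TMM factors. Prl2-/- was compared with Prl2+/+, without covariates, by edgeR's quasi-likelihood test (edgeR 4.0.16, R 4.3.3). Benjamini-Hochberg adjustment covered every gene tested, and 0.05 was the threshold. A standard error is the log2 fold change over the root of its F statistic, and 95% confidence intervals rest on the degrees of freedom of that test. Libraries varied with a common biological coefficient of 0.264. Log2 CPM used a prior count of 2, and RPKM is CPM per kilobase of the deposited exon length. The edgeR script was tested on simulated data. Correlations and ratios were tested by exact permutation. DESeq2 1.42.0 and limma 3.58.1 (voom) were alternatives, with other scalings, no filter, covariates, the replicate number as a block and each library left out.

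No pair of libraries agreed within sampling noise (chi-square per gene at least 19.6). Intervals and counting errors of counts cover counting error only. The genes named are the members, the 2 genes of smallest p in each list of partners or pathway genes (a gene of the iron list is not reported here), and the nearest gene to each member by profile; genes named for a role or for following the output level were chosen after their values were seen. The members and lists were chosen with earlier results of these data known. Promoter sequences are from RefSeq (GRCm38.p6), where 6 of the 7 members matched, and the Tfrc transcript is from GENCODE M21.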

Additional observations from a re-analysis of the deposited data

How the results depend on the processing

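In the 16 alternative fits, 0 of the 7 members passed the threshold, and the lowest adjusted p of a member was 0.753. Of 112 member values under these alternatives, 99 kept the sign of the reported one. The others were small values of uncalled genes that crossed 0: Epor at 0.00245 with upper quartile scaling, 0.14 with the hepatoblast level as a covariate and -0.22 to 0.12 with 1 library left out; Gata1 at 0.044 with that covariate and -0.11 to 0.042 with 1 library left out; Tfrc at -0.21 to 0.0017 with 1 library left out; and Zfpm1 at -0.0038 without the 2 libraries richest in hepatoblast markers. The last setting and the erythroid output covariate were chosen after seeing the data. The Gata1 to Gata2 difference ran from -0.049 to 0.10 and the Gata1 to Spi1 difference from -0.055 to 0.17 with 1 library left out. The number of members correlated with the output level was 0 (0 to 0) over 5 libraries, and 0 with deviations from the genotype mean, permuted within genotype; both allow fewer pairings than 6 libraries do. Against 5 genes called in all, DESeq2 gave 36, the likelihood ratio test 21, the fit with the replicate block 1, the fit without the 2 hepatoblast-rich libraries 1, and leaving out 1 library 3 to 4; the cause was not tested. Deviations of same-numbered libraries from their genotype had r of -0.638, 0.209 and 0.174 for replicates 1 to 3. Differently numbered libraries had r of -0.813 to 0.745. The highest were 0.745 for Prl2-/- replicate 1 with Prl2+/+ replicate 3 and 0.725 for Prl2-/- replicate 2 with Prl2+/+ replicate 1. So few libraries cannot decide whether the numbers pair the samples, and the labels do not say. The replicate block changed no call of a member. Counting error of the members was at most 4.63%, taking each counted read as independent. Any error from amplification of the very small input is not in this value. Whether depth or the spread between the 3 libraries of a group limited the members more was not tested.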
